A study of Mus musculus with 18 samples.

Results

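The comparison was between late mouse blastocysts lacking Oct4 and wild type blastocysts at E4.5. It covered 6 of the 18 libraries of the series and all 6545 genes of the table for that stage, of which 6443 had a gene symbol. The null embryos carried the genotype Oct4 -/- and the controls Oct4 +/+. Both groups were of the CD1 strain, were flushed from the uterus or oviduct and received no treatment. Each group had 3 libraries, called null 1, 2 and 3 and wild type A, B and C, because the wild type columns carry no replicate number. The sources used here do not describe the null allele, and they do not say whether a library is 1 whole embryo. The comparison asks which transcripts differ once Oct4 is absent from the late blastocyst.

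Oct4, encoded by Pou5f1, is a POU-domain transcription factor that binds the DNA octamer and is needed for the inner cell mass to become pluripotent epiblast. In the late blastocyst the inner cell mass has separated into epiblast, which makes FGF4, and primitive endoderm, which responds to it and begins to lay down basement membrane. The trophectoderm is the outer epithelium that mediates implantation, and it makes up most of the cells of the embryo.

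RNA was primed with oligo(dT) and amplified, so reads fall near the 3′ ends of polyadenylated transcripts. The deposited unit is CPM, in which all libraries of a table have the same total. The null libraries held 364936, 1314657 and 1343054 reads, against 543033, 515745 and 1088324 in the wild type libraries, and 1 read was worth 2.74 CPM in null 1 but 0.745 CPM in null 3. Defining genes of all 3 lineages were measured: Nanog for epiblast, Gata4 for primitive endoderm and Cdx2 for trophectoderm, while Sox2 and Sox17 were not analysed here. Null 1 stood apart, with a correlation over genes of 0.919 with null 2, whereas null 2 and null 3 reached 0.980. Wild type A and B correlated at 0.935, below wild type B with null 2 (0.958) and with null 3 (0.961). The summed globin level was 1085, 148 and 359.6 CPM in null 1, 2 and 3, against 149, 268 and 211 CPM in wild type A, B and C. The 3 globin genes were the maternal blood markers measured, and their part in the results was not tested. At equal depth null 3 and wild type C differed from a weighted mix of the other 2 libraries of their group by 0.952 and 1.03 times the sampling variance, whereas the other 4 libraries differed by 1.11 to 2.25 times. At E2.5 and E3.75 the third library of each group was likewise the nearest to such a mix, at 1.11 to 1.26 times. Whether the third libraries are independent of the others of their group was not tested, and the counts over 3 libraries treat them as if they were. Results are therefore also given with null 3 and wild type C left out. A gene whose null values all lie under the lowest level that the table's filter let pass (10.4 CPM in 3 libraries) and whose wild type values all lie above it could only be lower in null, which holds for 30 genes, and the reverse holds for 45. In bulk samples fewer cells of a type and less RNA per cell cannot be told apart.

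The null embryos had less RNA of Spp1, Pou5f1, Tdgf1 and other genes of the epiblast. Not all epiblast genes were lower, since Nanog, Esrrb and Fgf4 overlapped and Fbxo15 was higher in every null library. Primitive endoderm genes were split, since the laminin genes were lower in every null library, Cited1, Col4a1 and Dab2 were higher in every null library, and Gata6 overlapped. Genes of glycolysis and of the respiratory chain were mostly lower, whereas proteasome and mitochondrial ribosome genes were mostly higher. Of trophectoderm regulators, Cdx2, Eomes and Gata3 overlapped between the groups, and Hand1, Tfap2c and Tead4 were higher in every null library. In limma, fitted to log2(CPM + 1) over all genes with Benjamini-Hochberg adjustment, 0 of 6545 genes (0%) passed an adjusted p of 0.05, and 985 (15%) had an unadjusted p under 0.05. edgeR on the whole reads recovered from the CPM steps called 42 genes (0.642%), of which 41 were lower and 1 was higher in null, and DESeq2 called 112 of the 2611 genes to which it gave an adjusted p (4.29%), 85 lower (3.26%) and 27 higher (1.03%). Of edgeR's 42 calls, 36 were among DESeq2's. To the others, Zscan10, Phlda2, Zbtb45, Mrps33, Ppp1r14d and Osbpl5, DESeq2 gave no adjusted p. With null 3 and wild type C left out, limma and edgeR both called 0 genes, with smallest adjusted p-values of 0.832 and 0.854 and with 380 genes under an unadjusted limma p of 0.05. Without null 1, limma called 120 genes and edgeR 514, which included all 42. Without wild type B edgeR called 203, without null 2 it called 1, and without null 3, wild type A or wild type C it called 0. The p-values reflect only how far these 6 libraries scatter, and the labels do not say how the libraries of a group are related.

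**Figure D1:**
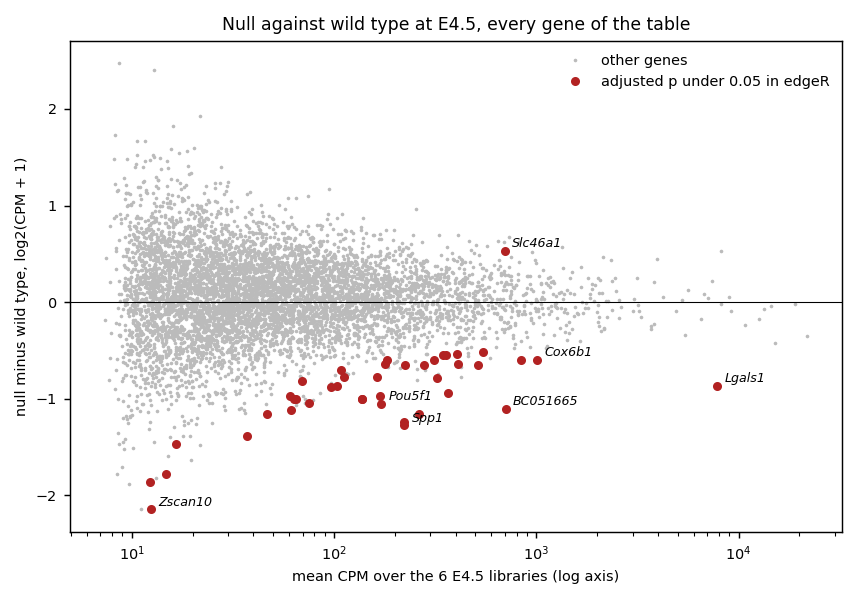
The difference between null and wild type in log2(CPM + 1) against the mean CPM over the 6 libraries (log axis), 1 point per gene. Red points are the 42 genes with an adjusted p under 0.05 in edgeR. All but Slc46a1 lie below 0, from Zscan10 at -2.14 to genes near -0.52.

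Pou5f1 itself was lower in every null library but was still detected. Its level was 142, 95.1 and 96.8 CPM in null 1, 2 and 3, from 52, 125 and 130 reads, against 274, 235 and 183 CPM in wild type A, B and C, from 149, 121 and 199 reads. The groups did not overlap, and the difference was -1.05 on the log2 scale (SE 0.20, limma adjusted p 0.125; edgeR 0.0264; DESeq2 1.21e-04). It was -1.12 without null 3 and wild type C, where neither limma nor edgeR called it, and the edgeR call was also lost without null 2, null 3, wild type A or wild type C. At E3.75 the difference was -0.96 (SE 0.13, limma adjusted p 8.57e-05). Reads near the 3′ end check the genotype only if the deleted part includes that end, which the sources used here do not say, and an exact two-sided permutation of 3 against 3 libraries cannot give a p below 0.1.

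Spp1, which encodes the secreted glycoprotein osteopontin, had the smallest p of the table. It stood at 167, 114 and 112 CPM in null, against 352, 297 and 294 CPM in wild type. Each null library was below each wild type library, and the mean difference was -1.27 on the log2 scale (SE 0.17, limma adjusted p 0.0611; edgeR 0.00521; DESeq2 1.24e-08). An element in the first intron of mouse Spp1 is known to bind Oct4. RefSeq lists an alternative Spp1 start whose promoter window, 250 bases before to 50 after that start, lies within intron 1 of 6 of the 7 GENCODE transcript models of the gene. This window is shown because it holds an octamer, ATGCAAAT, in capitals below. It is chr5:104435942-104436241 on the plus strand of GRCm38.p6, from RefSeq, while the authors' tables used mm9 and hold no coordinates.

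Spp1 intronic start: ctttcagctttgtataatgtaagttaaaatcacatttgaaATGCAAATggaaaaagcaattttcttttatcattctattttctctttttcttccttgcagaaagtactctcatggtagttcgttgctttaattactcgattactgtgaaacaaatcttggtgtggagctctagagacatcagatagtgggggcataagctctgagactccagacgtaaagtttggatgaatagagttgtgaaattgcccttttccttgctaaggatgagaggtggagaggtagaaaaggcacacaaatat

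The octamer starts 864 bases past the start of the gene, at positions 104435982 to 104435989 of chromosome 5. ATGCAAAT on either strand was found in 570 of all 32851 RefSeq promoter windows (1.74%), in 63 of the 6197 windows found for 4902 genes of the E4.5 table (1.02%) and in 1 of the 49 windows found for 35 of the 41 genes that edgeR called lower, which is the Spp1 window. A match is only a description of these letters, and the windows cover 300 bases around a start.

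**Figure D2:**
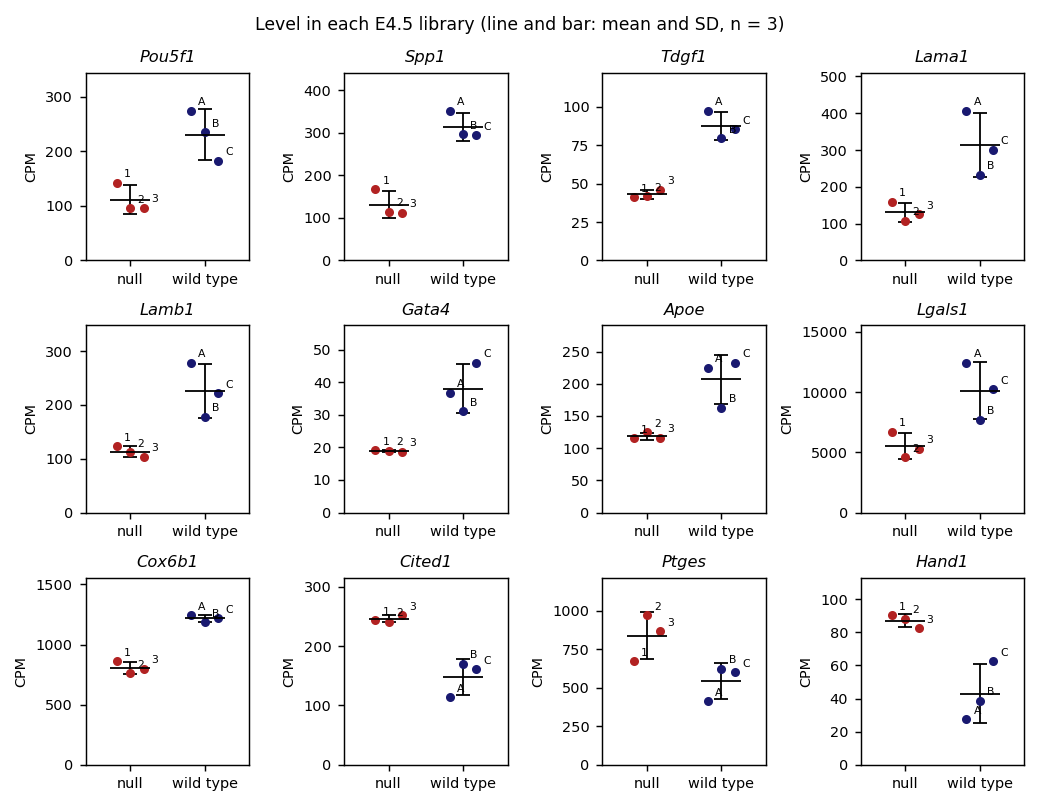
CPM of 12 genes in each E4.5 library, null 1, 2 and 3 left (red) and wild type A, B and C right (blue), with the mean and SD of each group (n = 3). The first 9 genes are lower in all 3 null libraries, and Cited1, Ptges and Hand1 are higher in all 3.

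Epiblast genes were mostly lower in null. Of 28 measured, 20 were lower and 8 higher, with a median difference of -0.25 against 0.06 over all genes, of which 44% were lower. All null libraries were below all wild type libraries for 10 and above for 2, where over all genes the shares were 9.99% and 12.2%. edgeR called 3 of the 28 lower, Spp1, Tdgf1 and Dppa5a, where it called 0.626% of all genes lower. Tdgf1, the co-receptor of Nodal, was at 41.1, 41.8 and 46.2 CPM in null, against 97.6, 79.5 and 85.5 CPM in wild type. The null values lay close together and clear of wild type, a difference of -1.00 (SE 0.18, limma adjusted p 0.125; edgeR 0.0264). Dppa5a, an RNA-binding protein gene of pluripotent cells, was at 789, 574 and 666 CPM in null, against 1077, 968 and 996 CPM in wild type, and here too the groups did not overlap (-0.59, SE 0.12, edgeR adjusted p 0.0264).

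Other pluripotency regulators differed in their direction. Klf2, a Krüppel-like factor of naive pluripotency, had 8.22, 25.9 and 22.3 CPM in null libraries and 51.6, 29.1 and 35.8 CPM in wild type libraries. All null libraries were below wild type, null 1 most so, and the difference of -1.11 (SE 0.40) had a limma adjusted p of 0.232. Trim28, a co-repressor that keeps retroviral elements silent, was lower in each null library, at 830.3, 945 and 895 CPM in null, against 1046, 1014 and 1045 CPM in wild type (-0.22, SE 0.09). Nanog, the homeodomain factor of the epiblast, overlapped, with 41.1, 63.9 and 69.2 CPM in null libraries and 64.5, 67.9 and 61.6 CPM in wild type libraries. Its difference of -0.19 (SE 0.22) became 0.04 without null 1. Esrrb, an orphan nuclear receptor, also overlapped at 57.5, 45.6 and 45.4 CPM in null, against 46.0, 27.1 and 68.0 CPM in wild type (0.16, SE 0.30), and its sign turned without wild type B (-0.18) and in edgeR (-0.13). Fgf4, the growth factor that the epiblast sends to primitive endoderm, overlapped as well, with 38.4, 22.8 and 40.2 CPM in null libraries and 47.9, 38.8 and 43.2 CPM in wild type libraries (-0.38, SE 0.26, limma adjusted p 0.490). Fbxo15, an F-box gene first known as an Oct4 target in embryonic stem cells, was instead higher in each null library, at 98.6, 129 and 121 CPM in null, against 36.8, 91.1 and 75.3 CPM in wild type (0.86, SE 0.29, limma adjusted p 0.204).

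The primitive endoderm list was split. Of 17 genes, 11 were lower (64.7%, against 44% of all genes) and 6 higher, with a median of -0.33. Wholly below wild type were 7 (41.2%, against 9.99%) and wholly above 3 (17.6%, against 12.2%). Both the 11 and the 7 include Pdgfra, whose direction the table's filter fixed. The chains of laminin 111 were among the lowest. Lama1, its alpha chain, had 159, 107 and 125 CPM in null libraries and 407, 233 and 300.5 CPM in wild type libraries. The groups were separate, with a difference of -1.24 (SE 0.21, limma adjusted p 0.125; edgeR 0.0208; DESeq2 1.44e-06). Lamb1, the beta chain of the same trimer, had 123, 112 and 103 CPM in null libraries and 278, 178 and 221 CPM in wild type libraries (-0.98, SE 0.17, edgeR adjusted p 0.0234). Lamc1, its gamma chain and chosen after its values were seen, had 13.7, 25.9 and 26.8 CPM in null libraries and 55.2, 36.8 and 49.6 CPM in wild type libraries. Thus the 3 chains of 1 trimer each lay below wild type in every null library.

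Among the regulators of this lineage, Gata4, a zinc finger factor, was at 19.2, 19.0 and 18.6 CPM in null, against 36.8, 31.0 and 45.9 CPM in wild type. The null libraries were almost equal and below each wild type library, and the difference was -0.95 (SE 0.26, limma adjusted p 0.169; edgeR 0.0599). Pdgfra, the receptor that marks primitive endoderm, was low throughout, at 5.48, 9.89 and 6.70 CPM in null, against 16.6, 17.5 and 11.03 CPM in wild type, which in null 1 was 2 reads (-0.95, SE 0.42). It passed the table's filter through wild type alone, so its direction was fixed by the filter and is not a result. Gata6, the early determinant of the lineage, overlapped. It had 24.7, 60.9 and 75.9 CPM in null libraries and 64.5, 75.6 and 45.9 CPM in wild type libraries, null 1 being the lowest, and its difference of -0.32 (SE 0.36) became 0.16 without null 1. Sparc, a matrix protein of parietal endoderm, was lower at 178, 157 and 144 CPM in null, against 319, 192 and 234 CPM in wild type (-0.61, SE 0.18, limma adjusted p 0.182).

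Other members were higher. Cited1, a transcriptional co-activator, had 244, 241 and 252 CPM in null libraries and 114, 171 and 161 CPM in wild type libraries, with no overlap and a difference of 0.74 (SE 0.16, limma adjusted p 0.136; DESeq2 0.0186). Col4a1, a collagen IV chain of the same basement membranes as the laminins, had 271, 320.2 and 269 CPM in null libraries and 182, 248 and 202 CPM in wild type libraries (0.45, SE 0.14). Dab2, an adaptor of endocytosis, had 575, 683 and 652 CPM in null libraries and 482, 570.0 and 538 CPM in wild type libraries (0.26, SE 0.11). Amn, the membrane anchor of the cubilin receptor and chosen after its values were seen, was near its limit of detection, at 0, 12.2 and 10.4 CPM in null, against 29.5, 13.6 and 13.8 CPM in wild type. Over 20 matrix genes 13 were lower (65%, against 44% of all genes) and 7 higher, with a median of -0.29 that became -0.18 without null 1. Wholly below wild type were 6 (30%, against 9.99%) and wholly above 1 (5%, against 12.2%). Over 11 genes of endocytosis 4 were lower and 7 higher (median 0.08), and Rab5c, a GTPase of early endosomes, was at 63.0, 79.1 and 60.3 CPM in null, against 55.2, 48.5 and 57.0 CPM in wild type (0.32, SE 0.19).

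Trophectoderm genes had no common direction. Of 30, 18 were lower (60%, against 44% of all genes) and 12 higher, with a median of -0.12 (-0.06 without wild type A) and 0 edgeR calls. Wholly below wild type were 6 (20%, against 9.99%) and wholly above 6 (20%, against 12.2%). The summed level was 26519.7, 24394 and 25004 CPM in null and 26637, 24931 and 26230.2 CPM in wild type. Cdx2, the homeobox factor of the lineage, was at 501, 668 and 654 CPM in null, against 469.6, 588 and 569 CPM in wild type. Eomes, a T-box factor, was at 173, 184 and 176 CPM in null, against 259.7, 157 and 198 CPM in wild type. Gata3 was at 151, 178 and 171 CPM in null, against 158, 138 and 198 CPM in wild type. All 3 factors overlapped, with differences of 0.16 (SE 0.13), -0.17 (SE 0.17) and 0.03 (SE 0.16). The sign of Eomes turned without wild type A (0.01), and that of Gata3 with TMM scaling (-0.03).

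Hand1, a basic helix-loop-helix factor of trophoblast giant cells, was higher in each null library. It had 90.4, 88.2 and 82.6 CPM in null libraries and 27.6, 38.8 and 62.5 CPM in wild type libraries, a difference of 1.08 (SE 0.27, limma adjusted p 0.146; edgeR 0.0988). Tfap2c, an AP-2 factor of trophectoderm, was at 54.8, 47.9 and 64.0 CPM in null, against 31.3, 33.0 and 27.6 CPM in wild type, also without overlap (0.83, SE 0.22). Ptges, which makes prostaglandin E2, was at 671, 971 and 868 CPM in null, against 411, 622 and 602 CPM in wild type, and Cldn7, a tight junction claudin, at 3195, 3569 and 3445 CPM in null, against 2569, 3027 and 2995 CPM in wild type. Both were higher in every null library, by 0.63 (SE 0.17, DESeq2 adjusted p 0.0186) and 0.25 (SE 0.08). In the other direction lay keratins of the epithelium. Krt8 was at 2406, 2405 and 2456 CPM in null, against 2744, 2652 and 2751 CPM in wild type and Krt7 at 249, 224 and 229 CPM in null, against 398, 271 and 358 CPM in wild type, with differences of -0.16 (SE 0.07) and -0.53 (SE 0.15, limma adjusted p 0.169). Over 28 keratin and junction genes, among them the adherens junction gene Ctnna1 at 417, 453 and 421 CPM in null, against 587, 485 and 523 CPM in wild type, 15 were lower and 13 higher (median -0.09, and -0.03 without wild type B, -0.05 without wild type C and -0.06 without null 3).

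Few signalling genes were measured. Of 9 BMP and Nodal genes 5 were lower, with a median of -0.54 that became -0.24 without wild type B, -0.83 without null 1 and -0.21 without null 2. Pcsk6, a protease that processes Nodal, had 216, 163 and 173 CPM in null libraries and 436, 223 and 340.0 CPM in wild type libraries (-0.81, SE 0.21, limma adjusted p 0.169; DESeq2 0.00418). Lefty2, a secreted Nodal antagonist chosen after its values were seen, had 13.7, 9.89 and 6.70 CPM in null libraries and 47.9, 13.6 and 22.1 CPM in wild type libraries, and wild type A alone was high. Of 9 FGF and MAPK genes 5 were lower and 4 higher (median -0.10, and -0.04 without wild type A, -0.16 without wild type C, 0.03 without null 1 and 0.0055 without null 3). Fgfr2, a receptor of FGF4, was lower in each null library at 159, 136 and 156 CPM in null, against 219, 165 and 198 CPM in wild type (-0.36, SE 0.15). Etv5, an ETS factor and target of FGF signals that was chosen after its values were seen, was at 10.96, 7.61 and 13.4 CPM in null, against 27.6, 23.3 and 26.6 CPM in wild type. Of 9 Hippo genes 6 were higher and 3 lower, with a median of 0.36 that became 0.16 without wild type A and 0.62 without wild type B. Tead4, the DNA-binding partner of YAP in trophectoderm, was at 132, 153 and 141 CPM in null, against 64.5, 129.9 and 106 CPM in wild type, higher in every null library though close to wild type B (0.55, SE 0.23, limma adjusted p 0.284).

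Glycolysis genes were lower in 11 of 13 cases (84.6%, against 44% of all genes), with a median of -0.42. Wholly below wild type were 6 (46.2%, against 9.99%). Ldhb of this list passed the table's filter through null alone, so the filter fixed its direction. Ldha, the lactate dehydrogenase subunit that favours lactate formation, had 52.1, 43.4 and 49.1 CPM in null libraries and 110.5, 75.6 and 119 CPM in wild type libraries. The difference was -1.04 (SE 0.21, limma adjusted p 0.125; edgeR 0.0264). Pfkl, a phosphofructokinase subunit, had 71.2, 43.4 and 56.6 CPM in null libraries and 166, 81.4 and 93.7 CPM in wild type libraries (-0.94, SE 0.27). Tpi1, triose phosphate isomerase, had 181, 119 and 128 CPM in null libraries and 234, 190.0 and 191 CPM in wild type libraries (-0.54, SE 0.18). The glucose transporter Slc2a1 lay just below wild type, at 121, 123 and 127 CPM in null, against 164, 151 and 163 CPM in wild type (-0.36, SE 0.13). All 4 had groups that did not overlap, as the naming rule asked. Of the 4, edgeR called Ldha alone, and DESeq2 called Ldha (0.00418) and Pfkl (0.0186).

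The nuclear-encoded genes of the respiratory chain and ATP synthase were mostly lower. Of 72 genes 58 were lower (80.6%, against 44% of all genes) and 14 higher, with a median of -0.25. Wholly below wild type were 27 (37.5%, against 9.99%) and wholly above 6 (8.33%, against 12.2%). edgeR called 4 of the 72 lower, where it called 0.626% of all genes lower. Cox6b1, a subunit of cytochrome c oxidase, had 860.4, 761 and 799 CPM in null libraries and 1245, 1187 and 1219 CPM in wild type libraries. This was a small difference between tight groups, -0.59 (SE 0.09, limma adjusted p 0.0672; edgeR 0.0185). Cox7a2, of the same complex, had 471, 418 and 458 CPM in null libraries and 751, 570.0 and 621 CPM in wild type libraries (-0.52, SE 0.12, edgeR adjusted p 0.0498). Ndufb6, a subunit of complex I, had 277, 231 and 238 CPM in null libraries and 431, 332 and 370.3 CPM in wild type libraries (-0.60, SE 0.13, edgeR adjusted p 0.0393). Atp5j, a subunit of ATP synthase outside the naming rule and chosen after its values were seen, had 386, 305 and 308 CPM in null libraries and 514, 456 and 470.4 CPM in wild type libraries (edgeR adjusted p 0.0451). In all 4 the groups were separate, which the naming rule asked of all but Atp5j, and wild type A was the highest library.

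Transcripts made in the mitochondrion were lower in 8 of 10 cases (median -0.19, and -0.09 without wild type A, -0.30 without wild type B and -0.32 without null 1). Their sum was 69294, 52752 and 57323 CPM in null and 82984, 66258 and 72139 CPM in wild type, which overlapped because null 1 exceeded wild type B. The apocytochrome gene mt-Cytb had 14824, 11474 and 12487 CPM in null libraries and 19686, 15052 and 17157 CPM in wild type libraries (-0.42, SE 0.10, limma adjusted p 0.148; DESeq2 0.0278). Of 24 TCA cycle genes 15 were lower and 9 higher (median -0.10). Suclg1, a subunit of succinate-CoA ligase, had 1118, 1049 and 1053 CPM in null libraries and 1527, 1291 and 1272 CPM in wild type libraries (-0.34, SE 0.09, DESeq2 adjusted p 0.0448). Pdha1, the pyruvate dehydrogenase subunit that feeds the cycle, was higher in every null library at 488, 477 and 479.5 CPM in null, against 295, 413 and 346 CPM in wild type (0.47, SE 0.13).

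Of 26 amino acid and one-carbon genes 18 were lower (69.2%, against 44% of all genes), with a median of -0.10 that became 0.02 without null 1. edgeR called 2 of the 26 lower, where it called 0.626% of all genes lower. Asns, asparagine synthetase, had 162, 169 and 191 CPM in null libraries and 271, 287 and 264 CPM in wild type libraries (-0.65, SE 0.13, edgeR adjusted p 0.0264). Mthfd1, a folate enzyme, had 411, 391 and 389 CPM in null libraries and 768, 516 and 606 CPM in wild type libraries (-0.65, SE 0.14, edgeR adjusted p 0.0332). Both genes were separate in the groups, as the naming rule asked. Of 22 sterol and fatty acid genes 15 were higher (68.2%, against 56% of all genes) and 7 wholly above wild type (31.8%, against 12.2%). Their median was 0.13, against 0.06 over all genes, and became 0.04 without wild type B and 0.22 without null 2, and in edgeR it was 0.04, or -0.01 without null 3. Elovl6, a fatty acid elongase, had 186, 205 and 221 CPM in null libraries and 112, 147 and 130.5 CPM in wild type libraries (0.65, SE 0.15, DESeq2 adjusted p 0.0417). The sterol reductase gene Dhcr7 had 134, 166 and 127 CPM in null libraries and 90.2, 107 and 103 CPM in wild type libraries (0.50, SE 0.16).

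Proteasome and mitochondrial ribosome genes were mostly higher in null. Of 42 proteasome genes 35 were higher (83.3%, against 56% of all genes), with a median of 0.22 that became 0.14 without wild type A. Wholly above wild type were 9 (21.4%, against 12.2%) and wholly below 2 (4.76%, against 9.99%). Psmd11, a lid subunit, had 241, 299.7 and 270.3 CPM in null libraries and 177, 223 and 178 CPM in wild type libraries (0.49, SE 0.14, limma adjusted p 0.171). Psmd4, a ubiquitin receptor of the particle, had 636, 729 and 733 CPM in null libraries and 459, 634 and 521 CPM in wild type libraries (0.39, SE 0.13). No proteasome gene was called by limma, edgeR or DESeq2. Of 73 mitochondrial ribosome genes 50 were higher (68.5%, against 56% of all genes), with a median of 0.17 that became 0.09 without wild type A. In edgeR the median was 0.05, and 0.02 without wild type B. Wholly above wild type were 12 (16.4%, against 12.2%) and wholly below 6 (8.22%, against 9.99%). The only edgeR call in the list, Mrps33, was lower, and the table's filter fixed its direction. Mrpl58, a ribosome-bound peptide release factor, had 301, 270.0 and 280.0 CPM in null libraries and 158, 233 and 213 CPM in wild type libraries (0.51, SE 0.15). Cytosolic ribosomal protein genes, by contrast, had 38 of 64 lower and a median of -0.05 (-0.03 without null 3). Rps2 in that list shares reads with near-identical copies and is uncertain, at 71.2, 73.0 and 81.9 CPM in null, against 27.6, 40.7 and 48.7 CPM in wild type.

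Lysosome and proton pump genes were higher in 31 of 41 cases, with a median of 0.10 that became 0.16 without wild type B, 0.20 without null 1 and 0.04 without null 2. Atp6ap2, an accessory subunit of the proton pump, had 169.9, 185 and 177 CPM in null libraries and 123, 120.2 and 136 CPM in wild type libraries (0.48, SE 0.13), and Ctsz, a lysosomal protease, had 318, 392 and 359.6 CPM in null libraries and 273, 252 and 297 CPM in wild type libraries (0.38, SE 0.12). Solute carriers were close to all genes, with 73 of 123 higher (59.3%, against 56% of all genes) and 12.2% wholly above wild type, against 12.2% (median 0.11, and 0.06 without wild type A). They include the only gene that edgeR called higher (0.0153% of all genes), the proton-coupled folate transporter Slc46a1. It had 737, 915 and 837 CPM in null libraries and 525, 597 and 594 CPM in wild type libraries, with no overlap (0.53, SE 0.11, edgeR adjusted p 0.0498; DESeq2 0.00947). Slc39a4, a zinc importer, had 573, 581 and 527 CPM in null libraries and 293, 467 and 340.0 CPM in wild type libraries (0.64, SE 0.15, DESeq2 adjusted p 0.0206). Slc5a6, the sodium-dependent vitamin transporter, had 745, 994 and 884 CPM in null libraries and 571, 694 and 621 CPM in wild type libraries (0.47, SE 0.12, DESeq2 adjusted p 0.0345). For each of the 3 carriers the lowest null library exceeded the highest wild type library, as the naming rule asked. Slc45a3 and Slc35b3 of the list passed the table's filter through null alone, so the filter fixed their direction.

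Cytoskeletal genes were lower in 22 of 26 cases (84.6%, against 44% of all genes), with a median of -0.15. Wholly below wild type were 11 (42.3%, against 9.99%) and wholly above 0 (against 12.2%). Actn1 of this list passed the table's filter through wild type alone, so the filter fixed its direction. Lgals1, the galectin 1 gene that the list also holds, accounted for a large part of the summed level, with 6719, 4573 and 5282 CPM in null libraries and 12421, 7711 and 10240.5 CPM in wild type libraries. It was the most abundant gene that edgeR called (-0.87, SE 0.16, edgeR adjusted p 0.0264). Tpm4, a tropomyosin, had 359, 380.3 and 371 CPM in null libraries and 699.8, 430.4 and 534 CPM in wild type libraries (-0.55, SE 0.15, DESeq2 adjusted p 0.0154), and Myl12a, a myosin light chain, had 559, 501 and 524 CPM in null libraries and 921, 593 and 708 CPM in wild type libraries (-0.47, SE 0.14, DESeq2 adjusted p 0.0297). Wild type A was the highest library for all 3 genes. Of 21 antioxidant genes 11 were lower and 10 higher (median -0.06, and 0.08 without wild type B, 0.03 without null 1 and -0.11 without null 2). The peroxiredoxins within it parted without overlap, as Prdx2 had 211, 218 and 218 CPM in null libraries and 379, 333 and 311 CPM in wild type libraries (-0.65, SE 0.12, edgeR adjusted p 0.0264) and Prdx6 had 392, 279.9 and 301 CPM in null libraries and 189.7, 271 and 265 CPM in wild type libraries (0.42, SE 0.17, limma adjusted p 0.278).

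The cell cycle, p53 and chromatin lists held no edgeR call, but Pttg1, which encodes the separase inhibitor securin and is in none of them, was called lower. Chosen after its values were seen, it had 90.4, 70.7 and 59.6 CPM in null libraries and 114, 139.6 and 147 CPM in wild type libraries (-0.86, SE 0.19, edgeR adjusted p 0.0264). Of 33 cell cycle genes 20 were lower and 13 higher (median -0.05, and 0.02 without wild type B and 0.05 without null 1). Mcm5, of the replicative helicase, had 159, 195 and 173 CPM in null libraries and 221, 244 and 221 CPM in wild type libraries (-0.38, SE 0.13), while Cdc20, which drives the exit from mitosis, had 263, 291 and 269 CPM in null libraries and 189.7, 244 and 233 CPM in wild type libraries (0.31, SE 0.13). Of 15 p53 and apoptosis genes 11 were higher (median 0.26 in limma, and in edgeR 0.25 with all libraries, 0.15 without wild type C and 0.05 without null 2). Only 1 (6.67%, against 12.2% of all genes) was wholly above wild type and 1 wholly below, and the one above was the anti-apoptotic gene Bcl2l1 at 43.8, 34.2 and 45.4 CPM in null, against 20.3, 17.5 and 31.2 CPM in wild type (0.85, SE 0.28). Chromatin genes were lower in 12 of 21 cases (57.1%, against 44% of all genes), with a median of -0.22. Of the 21, 7 were wholly below wild type (33.3%, against 9.99%). Dnmt3l, a cofactor of de novo DNA methylation, had 104, 113 and 133 CPM in null libraries and 149, 142 and 153 CPM in wild type libraries (-0.35, SE 0.15). Of 14 heat shock and immediate early genes 9 were lower (median -0.13, and -0.0022 without wild type B), with Hspd1, a mitochondrial chaperonin, at 142, 127 and 144 CPM in null, against 171, 194 and 182 CPM in wild type. Among genes of earlier stages, the maternal-effect gene Khdc3 had 1104, 981 and 1022 CPM in null libraries and 1119.6, 1136 and 1124 CPM in wild type libraries, and Pramel6, a gene of the 2-cell list, had 784, 981 and 939 CPM in null libraries and 419.9, 688 and 610.1 CPM in wild type libraries (0.68, SE 0.16, DESeq2 adjusted p 0.00847).

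**Figure D3:**
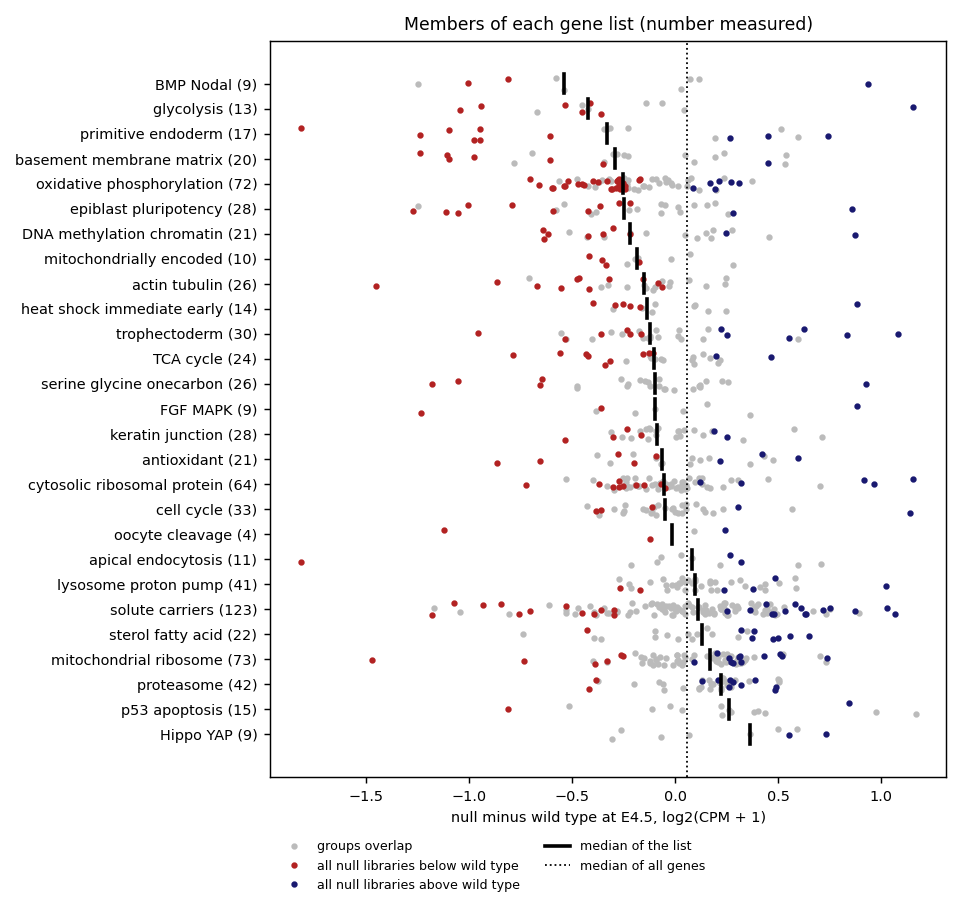
Differences between null and wild type in log2(CPM + 1) for the members of each list with 4 or more measured genes (number in brackets). Red and blue points have all null libraries below or above wild type, black bars are list medians, and the dotted line is the median of all genes (0.06). BMP and Nodal genes have the lowest median (-0.54) and Hippo genes the highest (0.36), and both move by over 1.5 times when 1 library is left out.

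The medians of all 27 lists with 4 or more measured genes kept their sign with TMM and DESeq2 size factors, which took the median of all genes to 0.002 and 0.01. Those just above 0 were nearest to turning. In edgeR all 27 medians had the sign they have in limma, and with 1 library left out 5 turned sign in limma and 5 in edgeR. With 1 library left out in limma, the medians of 9 lists moved by no more than 1.5 times. Without null 3 and wild type C together the median was -0.06 for FGF and MAPK genes, -0.05 for keratin and junction genes, -0.04 for amino acid and one-carbon genes, -0.07 for trophectoderm genes and 0.09 for sterol and fatty acid genes, each over 1.5 times nearer to 0. The edgeR median of chromatin genes, -0.27, became -0.08 without wild type A and -0.18 without wild type B. With TMM factors the median was 0.02 for endocytosis genes, 0.04 for lysosome genes and 0.05 for solute carriers.

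Several of the largest differences lay outside the lists. Among lower genes, BC051665, a cathepsin-like gene, had 529, 367 and 419.9 CPM in null libraries and 1317, 634 and 970.3 CPM in wild type libraries (-1.10, SE 0.22, edgeR adjusted p 0.0264). Tmem14c, a mitochondrial membrane protein of haem synthesis, had 200.0, 122 and 161 CPM in null libraries and 495, 256 and 345 CPM in wild type libraries (-1.15, SE 0.23, edgeR adjusted p 0.0264). Both were highest in wild type A, though wild type B also exceeded every null library. Capg, an actin-capping protein, had 271, 215 and 224 CPM in null libraries and 460.4, 374 and 386 CPM in wild type libraries (-0.78, SE 0.13, edgeR adjusted p 0.0234). Apoe, the apolipoprotein E gene, had 115, 125 and 116 CPM in null libraries and 225, 163 and 232 CPM in wild type libraries (-0.78, SE 0.16, edgeR adjusted p 0.0264). For Capg and Apoe too the groups were apart. Serpine2, a secreted inhibitor of serine proteases, had 49.3, 33.5 and 55.8 CPM in null libraries and 122, 65.9 and 104 CPM in wild type libraries (-1.04, SE 0.26, DESeq2 adjusted p 0.0122). Eml4, a microtubule-binding protein, had 41.1, 39.6 and 34.3 CPM in null libraries and 103, 81.4 and 69.8 CPM in wild type libraries (-1.11, SE 0.21, edgeR adjusted p 0.0264). Gas2l1, Fam25c and Acat2 also met the naming rule, with differences of -1.06, -1.01 and -1.00, and Acat2 encodes a thiolase of sterol synthesis that the sterol list does not hold.

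Among higher genes outside the lists, Araf, a RAF kinase, had 222, 79.9 and 101 CPM in null libraries and 40.5, 58.2 and 64.3 CPM in wild type libraries. Null 1 was the highest library, and the difference of 1.17 (SE 0.33) had a limma adjusted p of 0.169 and a DESeq2 adjusted p of 0.0198. Mafg, a small MAF factor, had 90.4, 78.3 and 71.5 CPM in null libraries and 27.6, 52.4 and 35.8 CPM in wild type libraries (1.07, SE 0.24, DESeq2 adjusted p 0.0387). Rcan1, a calcineurin inhibitor, had 197, 109.5 and 97.5 CPM in null libraries and 51.6, 96.9 and 67.1 CPM in wild type libraries, again highest in null 1 (0.87, SE 0.28). In all 3 the groups were apart, as the naming rule asked, though null 3 and wild type B of Rcan1 came close. Nploc4, a cofactor of the p97 ATPase, had 112, 121 and 130.3 CPM in null libraries and 53.4, 83.4 and 72.6 CPM in wild type libraries (0.81, SE 0.19, DESeq2 adjusted p 0.0471). Tmem144, Mterf4 and 1810030O07Rik differed by 0.92, 0.81 and 1.01.

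Of the 41 genes that edgeR called lower, 39 had groups that did not overlap, where 9.99% of all genes lay wholly below wild type. The 41 were chosen by a test on the same values, so this separation is not a further result about them. The genes of the 41 with the largest differences were low in level. The 5 genes described next are outside the naming rule and were chosen after their values were seen. Zscan10, a zinc finger factor of embryonic stem cells, had 2.74, 3.80 and 5.21 CPM in null libraries and 27.6, 13.6 and 22.1 CPM in wild type libraries (-2.14, SE 0.46, edgeR adjusted p 0.0264), from 1, 5 and 7 reads in null and 15, 7 and 24 reads in wild type. Zscan10, Phlda2, Mrps33 and Zbtb45 are the 4 of the 41 that passed the table's filter through wild type alone, so the filter fixed their direction. Phlda2, an imprinted gene of placental growth, had 8.22, 4.56 and 2.23 CPM in null libraries and 25.8, 13.6 and 19.3 CPM in wild type libraries (-1.86, SE 0.50). Ppp1r14d, a phosphatase inhibitor, had 21.9, 17.5 and 20.8 CPM in null libraries and 53.4, 48.5 and 60.6 CPM in wild type libraries (-1.39, SE 0.23). All 3 were lower in every null library. Htra1, a secreted serine protease, had 290.5, 202 and 251 CPM in null libraries and 604, 341 and 508 CPM in wild type libraries (-0.94, SE 0.20), and Upp1, uridine phosphorylase, had 258, 289.8 and 299 CPM in null libraries and 422, 397 and 415 CPM in wild type libraries (-0.55, SE 0.11). Rps18-ps3 and a row with no symbol had identical values in every library, so they are 1 measurement, and as copies of a ribosomal gene they are uncertain.

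The lower genes were compared with E3.75, a stage at which null and wild type came from other embryos. Over all 5882 genes in both tables the null effects at the 2 stages had a Pearson correlation of 0.208. Of the 41, which are 40 measurements with the identical pair counted once, 39 were in that table, 34 were lower there and 19 (48.7%) were called lower by limma, against 283 of 5882 genes in both tables (4.81%). Their median difference was -0.87 at E4.5, the value that chose them, and -0.68 at E3.75. Among the 39 were Pou5f1, the gene that the genotype removes, and Zscan10, Mrps33 and Zbtb45, whose direction at E4.5 the filter fixed. All of these were lower at E3.75, and Pou5f1 and Zscan10 were among the 19 called. The share without these genes was not computed. Spp1 at E3.75 was -1.13 (limma adjusted p 0.00346), Lama1 -1.13 (0.00144) and Upp1 -1.11 (4.10e-06). Tmem14c and Hilpda, the second also chosen after its values were seen, were not lower there, at 0.03 and 0.02. At E2.5, where 31 of the 40 were measured, 23 were lower, 1 was called and the median was -0.19. Of the 27 genes that DESeq2 called higher at E4.5, 22 were higher at E3.75 and 13 were called (48.1%), against 226 of 5882 genes (3.84%). The 27 could come only from the 2611 genes with a DESeq2 adjusted p, so the sets are unlike. The share called at E3.75 among those 2611 was not computed.

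The null effect itself differed between the stages for 12 of 5882 genes (0.204%) in limma, tested as the difference of the 2 effects over 12 libraries. It was more positive at E4.5 for 9 and more negative for 3, but with TMM scaling the split was 4 and 8. Leaving out 1 E4.5 library gave 2 to 39 genes, the most without wild type B (39) and the fewest without null 3 or wild type C (2), while null 1, null 2 and wild type A left out gave 31, 5 and 6. With the third libraries of all 4 groups left out, 0 passed. Zc3hav1, an antiviral RNA-binding protein, had 129, 102 and 101 CPM in null libraries and 60.8, 58.2 and 70.8 CPM in wild type libraries at E4.5, a null effect of 0.79 (SE 0.18) beside -1.15 (SE 0.28) at E3.75. The effects differed by 1.94 (adjusted p 0.0149). Arf2, a GTPase of the Golgi, had 16.4, 7.61 and 11.2 CPM in null libraries and 27.6, 25.2 and 29.4 CPM in wild type libraries, an effect of -1.21 beside 1.04 at E3.75 and a difference of -2.25 (adjusted p 0.0330). Gjb5, a connexin of trophoblast, had 318, 265 and 292 CPM in null libraries and 265, 256 and 244 CPM in wild type libraries, an effect of 0.19 beside -0.95 (1.14, adjusted p 0.0116). Lgals4, galectin 4, had 101, 115 and 102 CPM in null libraries and 53.4, 112 and 70.8 CPM in wild type libraries, overlapping at E4.5, with effects of 0.49 and -0.78 (1.27, adjusted p 0.0359). For Nanog the effects were -0.19 at E4.5 and 0.73 at E3.75, and their difference of -0.91 did not pass (adjusted p 0.119).

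**Figure D4:**
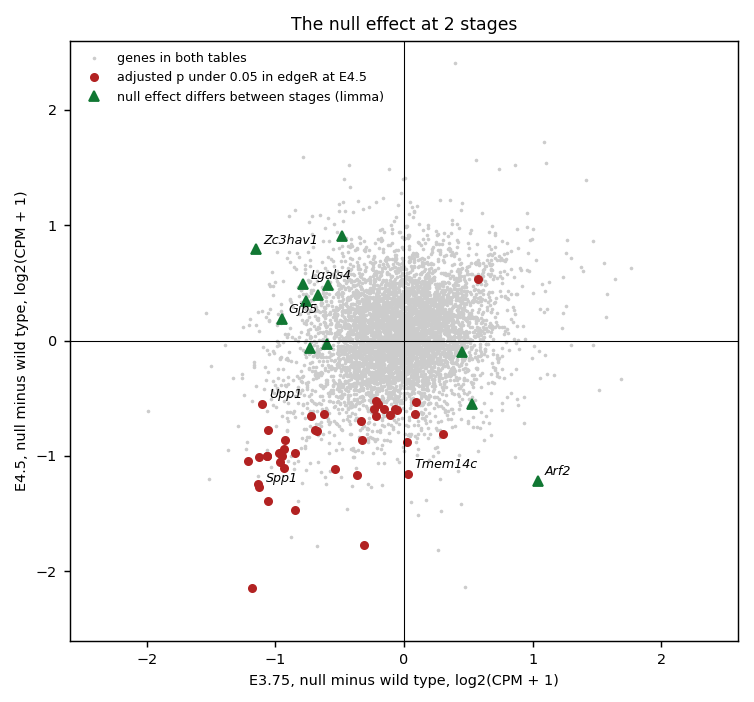
The difference between null and wild type at E4.5 against that at E3.75, both in log2(CPM + 1), for the 5882 genes in both tables. Red points are genes with an adjusted p under 0.05 in edgeR at E4.5, of which 34 of 39 lower measurements also lie left of 0, and green triangles are the 12 genes whose null effect differs between the stages.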

How the data were processed

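Values per gene and library came as CPM: the authors scaled read counts to a sum of 1000000 in each library of a stage's table. For this step the submitters' processing notes list edgeR, and they list the build mm9. Which aligner, counting tool and annotation were used is not given in the sources used here. In the E4.5 table every gene reaches 10.4 CPM or more in 3 of 6 libraries, so genes low in both groups were not analysed here. Division by the worth of 1 read gave whole reads for 39270 of 39270 values (tolerance 0.01 reads), which gave the depths.

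Null and wild type were compared in log2(CPM + 1) with limma's trended fit (version 3.58.1 under R 4.3.3), two-sided. Its p-values were adjusted by the Benjamini-Hochberg method across the whole table, with a threshold of 0.05. This scale understates differences of low genes. The recovered reads were also tested with edgeR 4.0.16 (quasi-likelihood) and with DESeq2 1.42.0, which left the adjusted p of 3934 genes undefined. SE is that of the log2 difference, null minus wild type, with a median of 0.26. Effects at E4.5 and E3.75 were compared in 1 limma fit. The tables were scaled separately, so levels were not compared across stages.

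Named were Pou5f1, lineage genes, genes past limma's threshold, the 12 largest differences per direction among genes with a mean of at least 50 CPM and separate groups, up to 8 edgeR calls per direction, up to 4 members with separate groups of each of 30 lists (otherwise 2), and up to 6 stage differences per direction. Where a rule asked for separate groups, that separation is not a result about the genes it named. Members, lists and comparisons were chosen with earlier results of these data known.

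In simulated reads for null against wild type at E4.5 (6545 genes, 200 changed) limma found 50% of 2-fold and 85% of 4-fold changes, edgeR 61% and 91%, and DESeq2 45% and 82%. For the stage difference (5882 genes) limma found 42.7% and 83.5%. False calls at E4.5 were 4 in limma, 9 in edgeR and 2 in DESeq2, and for the stage difference 3 in limma. The shares found describe simulated reads alone. Whether they hold for the real libraries, where limma called 0 genes at E4.5, was not tested. Alternatives were other pseudocounts, CPM minimums, scaling factors, thinned reads, library weights and libraries left out. edgeR with libraries left out was added after seeing the data.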

Additional observations from a re-analysis of the deposited data

Results flagged for a closer look

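The null effect, null minus wild type in log2(CPM + 1), differed between E4.5 and E3.75 for 9 of the named genes by limma's test of the difference. The effect at E4.5 minus that at E3.75 was 1.94 for Zc3hav1, 1.40 for Mpv17l2, 1.27 for Lgals4, 1.14 for Gjb5, 1.11 for Gm16559 and 1.07 for Dctn2. It was -2.25 for Arf2, -1.07 for Rbm8a and -0.55 for Tdrp. None of the 9 was called when the third library of each of the 4 groups was left out.

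For another 3 named genes all null libraries lay on one side of wild type at E4.5 and on the opposite side at E3.75, but limma's test of the difference did not pass. The difference between the effects was 1.80 for Hand1, a trophoblast factor, 1.57 for Xist, the RNA that coats the inactive X chromosome, and 1.18 for Bcl2l1, an anti-apoptotic gene. Hand1 was low at E3.75, with means of 8.63 CPM in null and 14.1 CPM in wild type (-0.72, SE 0.43, limma adjusted p 0.328). At E2.5 Hand1 was higher in null by 0.96 (limma adjusted p 0.0101). Bcl2l1 at E3.75 had means of 16.9 CPM in null and 21.5 CPM in wild type. The sex of the embryos is not given in the labels, and its part in the Xist values was not tested.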

How the results depend on the processing

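No paired analysis was possible because the 3 wild type columns share 1 header and carry no replicate number. The count of genes called by limma at E4.5, 0 with all libraries, was 1 with a pseudocount of 5, 2 with a mean of at least 50 CPM, 2 with TMM factors, 3 with thinned reads, 42 with edgeR, 112 with DESeq2 and 2515 with estimated library weights. Those weights were 6.3 for null 3 and 4.4 for wild type C, and 0.232 to 0.911 for the other libraries. Leaving out 1 library gave 0 to 120 in limma and 0 to 514 in edgeR, and with null 3 and wild type C left out the count was 0 in either tool. Pou5f1 kept its direction under every alternative. It passed with library weights (-0.97), edgeR (-1.17) and DESeq2 (-1.14), and with 1 library left out its difference was -1.24 to -0.91 in limma and -1.33 to -1.01 in edgeR, passing without null 1 in both and without wild type B in edgeR. The number of genes whose null effect differed between stages was 12, 2 to 39 with 1 library left out, 0 without the third library of each group, 42 with edgeR and 1051 with library weights. The split of higher to lower was 9 to 3, against 4 to 8 with TMM and 5 to 8 with DESeq2 size factors.

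Of the named genes, 5 changed sign in some setting, none of them called by any of the 3 tools with all libraries weighted equally. Library weights gave 0.11 for Nanog, 0.53 for Gata6, -0.14 for Gata3 and -0.41 for Esrrb. With those weights Gata6 passed limma's threshold (adjusted p 0.0155), in the direction opposite to the main fit. Gata3 was also -0.027 with TMM, -0.017 with DESeq2 size factors, -0.059 with thinned reads, -0.052 in edgeR and -0.041 in DESeq2, and Esrrb was -0.14, -0.13 and -0.061 in the last 3. With 1 library left out, the limma and edgeR ranges together were -0.33 to 0.042 for Nanog, -0.41 to 0.012 for Eomes, -0.63 to 0.16 for Gata6, -0.17 to 0.17 for Gata3 and -0.37 to 0.47 for Esrrb. The cause was not tested. Null 1 had 364936 reads, so 1 read there is 2.74 CPM, and differences of genes near 10 CPM rest on few reads. A p that misses the threshold does not show that values did not differ.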
